A study of Mus musculus with 6 samples.

Results

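The 10 genes described here cover the SLAM family, CD2, CD226 and SH2-domain adaptors, and were chosen by name from the 49315 genes of the deposited count table. They are the receptors Slamf1, Slamf6, Slamf7, Ly9, Cd84, Cd48, Cd2 and Cd226, and the adaptors Sh2d1a and Sh2d2a. All 10 were found and all 10 passed the filter on low counts. They were measured by bulk RNA sequencing of CD8+ T cells sorted from the lymph nodes that drain B16F10 tumors in wild-type female C57BL/6J mice. B16F10 is a transplantable mouse melanoma (the sample labels write the line as B26F10). All 6 mice received a single dose of HCW9218, which by the series title joins TGF-βRII and IL-15, under the skin when tumors measured 50 to 100 mm3, and were killed on day 5 after treatment. The monotherapy group (n = 3 mice) had HCW9218 alone, and the combination group (n = 3 mice) also had an antibody against PD1 given into the peritoneum. Untreated mice are not analysed here, so each value is relative to HCW9218 alone, and the age of the mice is not given in the sources used here.

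SLAM receptors are immunoglobulin-type surface proteins. Most of them bind their own kind on a neighbouring cell, while CD48 is the ligand of CD2 and of CD244 in mice. The tails of several SLAM receptors carry tyrosine motifs that recruit SAP, the small adaptor made from Sh2d1a, which brings in the kinase Fyn, and without SAP the same motifs can recruit inhibitory phosphatases. CD226 is a costimulatory receptor that shares its ligands CD155 (Pvr) and CD112 (Nectin2) with the inhibitory receptor TIGIT, and CD155 also with CD96. These receptors help T cells adhere to target and antigen-presenting cells and set the strength of the contact.

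Library totals ran from 34568074 to 40101346 counts. The sorted cells expressed all 7 CD8 T cell markers checked (Cd8a, Cd8b1, Cd3d, Cd3e, Cd3g, Trac and Cd5), whose summed level was 4450 to 5910 CPM (counts scaled to library size with TMM factors), while Cd4 had 2.58 ± 0.786 CPM in monotherapy and 1.26 ± 0.842 CPM in the combination (SD, n = 3 each). Markers of B cells summed to 42.1 to 84.6 CPM, of myeloid and dendritic cells to 55.7 to 90.6 CPM and of plasma cells to 35.5 to 49.6 CPM. By mean level, the largest part of the B cell sum was Cd79b, with 22.4 and 23.6 CPM in monotherapy and combination. The largest part of the myeloid and dendritic sum was Cst3, with 46.4 and 50.2 CPM, and of the plasma cell sum Xbp1, with 34.5 and 28.2 CPM. Among the B cell markers Cd22 rose by 1.44 on the log2 scale (edgeR adjusted p = 0.0244), while the list median was -0.43. The melanocyte genes Dct and Tyrp1 had no count in combination replicate 1 and 281 to 377 counts each in combination replicates 2 and 3. In the monotherapy libraries Dct had 0 counts and Tyrp1 0 to 1. Values without combination replicates 2 and 3 are therefore also given. In bulk RNA, a change in the share of cells that express a gene and a change in RNA per cell cannot be told apart.

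Slamf7 was the member that rose when the PD1 antibody was added, by about 2.1-fold, from a low level. In edgeR's quasi-likelihood test, 1 of the 10 genes was higher and 0 were lower at an adjusted p under 0.05, against 0.951% of all 15142 tested genes higher and 0.132% lower. The other 9 members, among them the abundant receptors Cd2, Cd48, Ly9, Cd84 and Slamf6, did not pass. Of the 10, 8 had a log2 fold change above 0, counting Cd2 at 0.00, against 7549 of all 15142 tested genes. The median of the 10 was 0.14, against a median of 0.00 over all tested genes. At an unadjusted p under 0.05 there were 3 members (Slamf7, Sh2d1a and Sh2d2a), against 8% of all genes. All 3 combination libraries lay above all 3 monotherapy libraries for 2 members, Slamf7 and Sh2d2a, against 7.17% of all genes, and the reverse held for 0 members, against 7.54% of all genes.

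**Figure D1:**
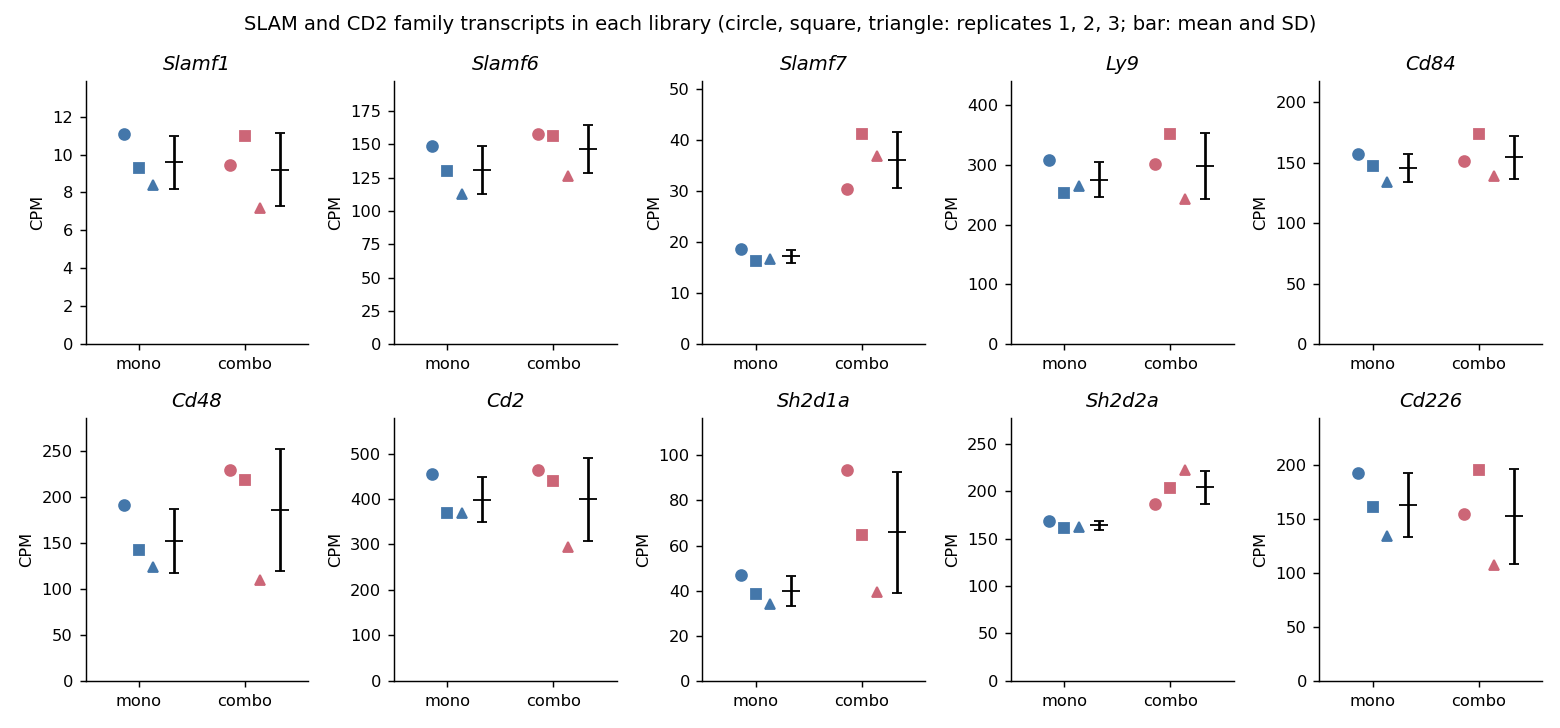
Level of each of the 10 genes in CPM (vertical axis from 0, 1 panel per gene) in the 3 monotherapy (blue) and 3 combination (red) libraries, with mean and SD as black bars. The groups separate for Slamf7 and Sh2d2a and overlap for the other 8 genes.

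Slamf7, also called CRACC or CS1, is a self-binding SLAM receptor of natural killer cells, activated CD8 T cells and plasma cells. It lies on the minus strand at chr1:171632403-171653035 (GRCm38). It had 18.7, 16.3 and 16.8 CPM in monotherapy replicates 1, 2 and 3, and 30.4, 41.3 and 36.9 CPM in the combination libraries. Every combination library was above every monotherapy library. The means were 17.3 ± 1.26 and 36.2 ± 5.43 CPM (SD, n = 3 each). On the log2 scale Slamf7 rose by 1.07 ± 0.15 (SE; 95% interval 0.73 to 1.40; edgeR adjusted p = 0.0108), and it ranked 56 by p among all tested genes. The fold change stayed between 0.81 and 1.20 over 17 alternatives. Its adjusted p rose to 0.0683, 0.085 and 0.0901 without monotherapy replicates 1, 2 and 3, to 0.0584 without combination replicate 2 and to 0.0555 with the summed B cell markers as covariate. In a fit that kept combination replicate 1 alone in its group, with its spread assumed to equal that of the monotherapy libraries, the Slamf7 log2 fold change was 0.81 (adjusted p = 0.0115).

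Natural killer and plasma cells also express Slamf7. The 7 natural killer markers summed to 11.5 to 13.6 CPM in monotherapy and 21.2 to 36.6 CPM in the combination; 2 of the 7, Klre1 and Gzma, rose, and the list median was 0.69 on the log2 scale. The other 5 did not pass, and their log2 fold changes were 1.52 for Klra8, 0.69 for Tyrobp, 0.54 for Klrb1c, 0.13 for Fcer1g and -0.16 for Ncr1. Ncr1, a defining receptor of natural killer cells, was at 0.226 ± 0.159 and 0.201 ± 0.0819 CPM, and Klrb1c, which encodes NK1.1, at 1.99 ± 0.344 and 2.89 ± 0.864 CPM (SD, n = 3 each). The 4 plasma cell markers summed to 42.7 to 49.6 CPM in monotherapy and 35.5 to 39.9 CPM in the combination, and none passed. Most of that sum was Xbp1, at 34.5 ± 0.552 and 28.2 ± 2.46 CPM (SD, n = 3 each). The log2 fold changes were -0.29 for Xbp1, -0.62 for Jchain, -0.70 for Sdc1 and 0.32 for Prdm1. The part of these cells in the Slamf7 result was not tested.

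The 6 SLAM receptors Ly9, Slamf7, Cd48, Slamf1, Cd84 and Slamf6 lie side by side on chromosome 1, in that order, within 365 kb. The deposited annotation starts 18 genes there, of which 12 were tested, 1 rose (Slamf7) and 0 fell. Slamf7 lies between Ly9, with a log2 fold change of 0.12 ± 0.17 (SE), and Cd48, with 0.29 ± 0.27 (SE). Taken as a share of the summed counts of the 5 other receptors of the locus, Slamf7 was 2.29%, 2.39% and 2.61% in monotherapy and 3.59%, 4.53% and 5.91% in the combination. This ratio does not depend on library scaling. It had an exact two-sided permutation p = 0.1, the smallest that 3 mice against 3 allow, and an adjusted p of 0.367 over 11 ratios computed.

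**Figure D2:**
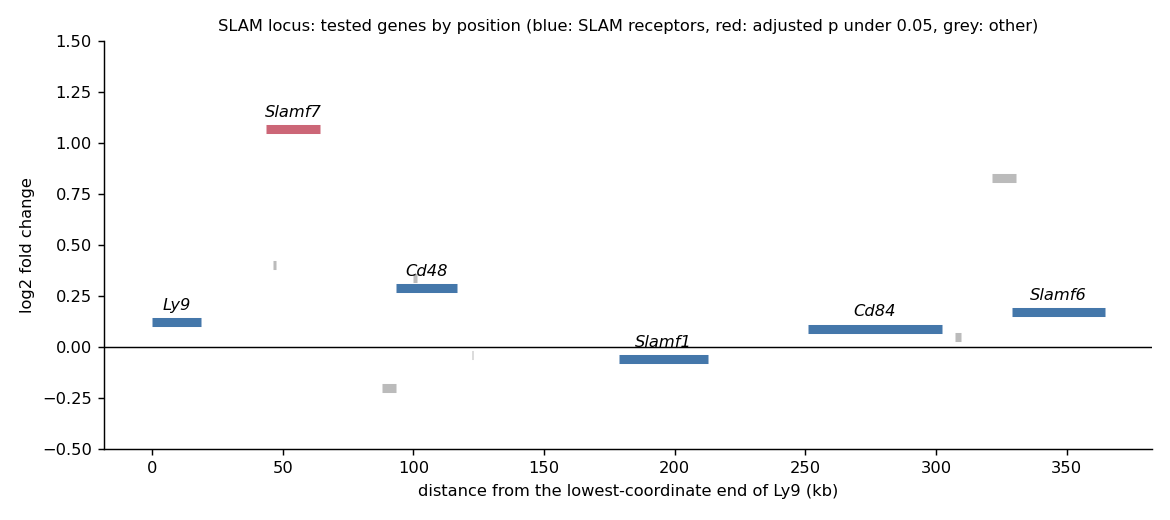
Tested genes of the SLAM locus on mouse chromosome 1, drawn as bars from gene start to gene end (distance from the lower end of Ly9, kb) at the height of their log2 fold change. Slamf7, at 1.07, stands above its neighbours Ly9 (0.12) and Cd48 (0.29), and the grey bar at 0.83 is the non-coding gene Gm37065 (adjusted p = 0.315).

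Promoter windows, from 250 bases before to 50 after the RefSeq start (GRCm38.p6), were examined for 5 of the 10 members. The 5 were Slamf7, Cd48, Slamf1, Cd84 and Slamf6. The other members, Cd226 among them, were left out of the motif search, so the shares below cover the 5 only. Of the 5 windows, 3 are shown. Slamf7 rose, Cd48 is its nearest examined neighbour that did not pass, and Cd84 shares a motif with Slamf7. They are chr1:171648950-171649249 on the minus strand for Slamf7, chr1:171681742-171682041 on the plus strand for Cd48 and chr1:171839447-171839746 on the plus strand for Cd84, and the Slamf7 window lies inside the deposited gene, which has an earlier start. Capitals mark exact matches, on either strand, to GGTGTG (T-box), TGTGGT (RUNX), AGGAAG (ETS) or TGANTCA (AP-1).
Slamf7: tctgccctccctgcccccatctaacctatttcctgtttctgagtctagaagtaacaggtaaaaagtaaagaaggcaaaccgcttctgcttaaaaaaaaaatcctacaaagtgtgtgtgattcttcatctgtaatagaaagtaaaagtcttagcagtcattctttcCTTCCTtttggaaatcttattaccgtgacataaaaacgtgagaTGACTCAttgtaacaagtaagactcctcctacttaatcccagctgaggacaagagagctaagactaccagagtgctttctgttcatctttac
Cd48: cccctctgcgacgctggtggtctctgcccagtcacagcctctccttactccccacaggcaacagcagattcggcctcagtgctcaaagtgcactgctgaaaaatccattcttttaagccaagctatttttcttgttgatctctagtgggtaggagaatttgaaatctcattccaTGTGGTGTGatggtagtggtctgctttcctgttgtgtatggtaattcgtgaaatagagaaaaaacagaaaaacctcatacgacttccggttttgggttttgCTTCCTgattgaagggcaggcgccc
Cd84: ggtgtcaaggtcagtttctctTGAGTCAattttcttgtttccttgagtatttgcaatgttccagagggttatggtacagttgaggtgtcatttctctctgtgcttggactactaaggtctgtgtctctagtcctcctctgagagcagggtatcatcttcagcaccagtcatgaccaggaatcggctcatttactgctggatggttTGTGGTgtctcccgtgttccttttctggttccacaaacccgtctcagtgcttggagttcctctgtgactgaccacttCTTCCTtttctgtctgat
TGANTCA was in the Slamf7 and Cd84 windows, 2 of 5, and in 7.8% of 32851 windows of the same length. AGGAAG was in 4 of 5 (35.4% of all windows), TGTGGT in Cd48 and Cd84 (16.8%), and GGTGTG in Cd48 alone (19.0%), where it overlaps the TGTGGT match. A match is a description of the letters, and Cd84, which holds TGANTCA like Slamf7, differed between groups by 0.09 ± 0.14 (SE) on the log2 scale and did not pass.

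The SLAM receptors other than Slamf7 kept overlapping groups. Slamf6 (Ly108), a marker of progenitor exhausted T cells, had 149, 130 and 113 CPM in monotherapy and 158, 156 and 126 CPM in the combination, a log2 fold change of 0.17 ± 0.15 (SE; 95% interval -0.18 to 0.51). Ly9 (CD229), a self-binding receptor, had 308, 253 and 264 CPM in monotherapy and 301, 352 and 242 CPM in the combination. Cd84 had 157, 147 and 134 CPM and then 151, 174 and 139 CPM, with a 95% interval of -0.22 to 0.40 on the log2 scale. For Ly9 and Cd84 the highest and the lowest library of the combination lay on both sides of the monotherapy mean.

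Slamf1 (CD150), a self-binding receptor of activated T cells that is also a measles receptor in people, was the lowest of the receptors. It had 11.1, 9.30 and 8.37 CPM in monotherapy and 9.45, 11.0 and 7.17 CPM in the combination, a log2 fold change of -0.06 ± 0.20 (SE; 95% interval -0.50 to 0.39). These intervals leave out a change of the size seen for Slamf7 in Slamf1, Slamf6, Ly9 and Cd84, which had upper bounds of 0.39, 0.51, 0.50 and 0.40.

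CD2 binds CD48, and neither transcript passed. Cd2 had 456, 369 and 370 CPM in monotherapy and 463, 439 and 295 CPM in the combination, means of 398 ± 50.3 and 399 ± 90.9 CPM (SD, n = 3 each). Its log2 fold change was 0.00 ± 0.20 (SE; 95% interval -0.44 to 0.45). Cd48 had 191, 142 and 124 CPM in monotherapy and 229, 219 and 110 CPM in the combination. Combination replicates 1 and 2 were above every monotherapy library and replicate 3 was below all of them. The Cd48 log2 fold change of 0.29 ± 0.27 (SE) became 0.55 when combination replicate 3 was left out and 0.49 when monotherapy replicate 1 was, but 0.16 without monotherapy replicate 3 or combination replicate 2 and 0.12 without combination replicate 1, and it passed in none of 17 alternatives (adjusted p from 0.103 to 1). CD226 transcripts were likewise spread, at 193, 161 and 134 CPM in monotherapy and 155, 195 and 107 CPM in the combination, and the Cd226 log2 fold change was -0.10 ± 0.22 (SE).

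**Figure D3:**
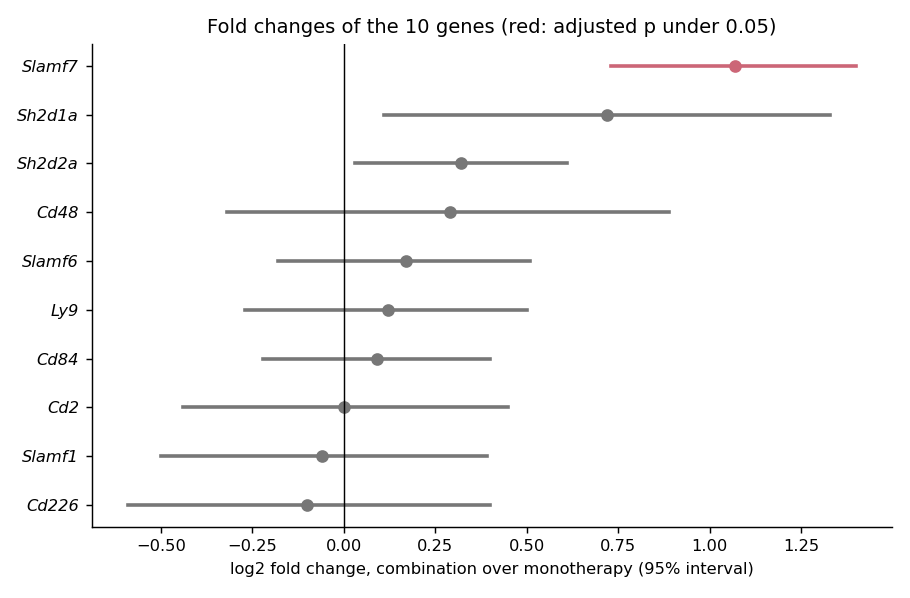
Log2 fold change of combination over monotherapy for the 10 genes, with 95% intervals from edgeR (red, adjusted p under 0.05). Slamf7 is highest at 1.07, the unadjusted intervals of Sh2d1a and Sh2d2a lie above 0, and the other 7 intervals include 0.

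The adaptors had the next largest differences after Slamf7, but neither passed. Sh2d1a, which encodes SAP, had 47.0, 38.6 and 34.1 CPM in monotherapy and 93.3, 64.7 and 39.4 CPM in the combination. Combination replicates 1 and 2 were above every monotherapy library, while replicate 3 lay within the monotherapy range. The log2 fold change was 0.72 ± 0.27 (SE; 95% interval 0.11 to 1.33; edgeR adjusted p = 0.469). Leaving out combination replicate 3 gave 0.99 (adjusted p = 0.0142), leaving out combination replicate 1 gave 0.40 (adjusted p = 0.595), and with combination replicate 1 alone kept it was 1.22 (adjusted p = 0.00302). With no count filter the fold change was the same and passed (edgeR adjusted p = 0.00213). That fit called more genes of every kind, 340 higher and 113 lower against 144 and 20 with the filter.

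Sh2d2a encodes TSAd, an adaptor that binds the kinase Lck in T cells. It had 169, 161 and 162 CPM in monotherapy and 187, 203 and 222 CPM in the combination, so the groups did not overlap. The means were 164 ± 4.27 and 204 ± 17.9 CPM (SD, n = 3 each), which is 0.32 ± 0.13 on the log2 scale (SE; 95% interval 0.03 to 0.61; edgeR adjusted p = 0.550). It passed in none of 17 alternatives, with adjusted p from 0.25 to 1. Combination replicate 3, the lowest combination library for Sh2d1a, was the highest for Sh2d2a. With combination replicate 1 alone kept, the log2 fold change was 0.18 for Sh2d2a, 0.58 for Cd48, 0.27 for Slamf6, 0.21 for Cd2, 0.12 for Ly9, 0.05 for Cd84, -0.03 for Slamf1 and -0.07 for Cd226, and none of these passed.

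**Figure D4:**
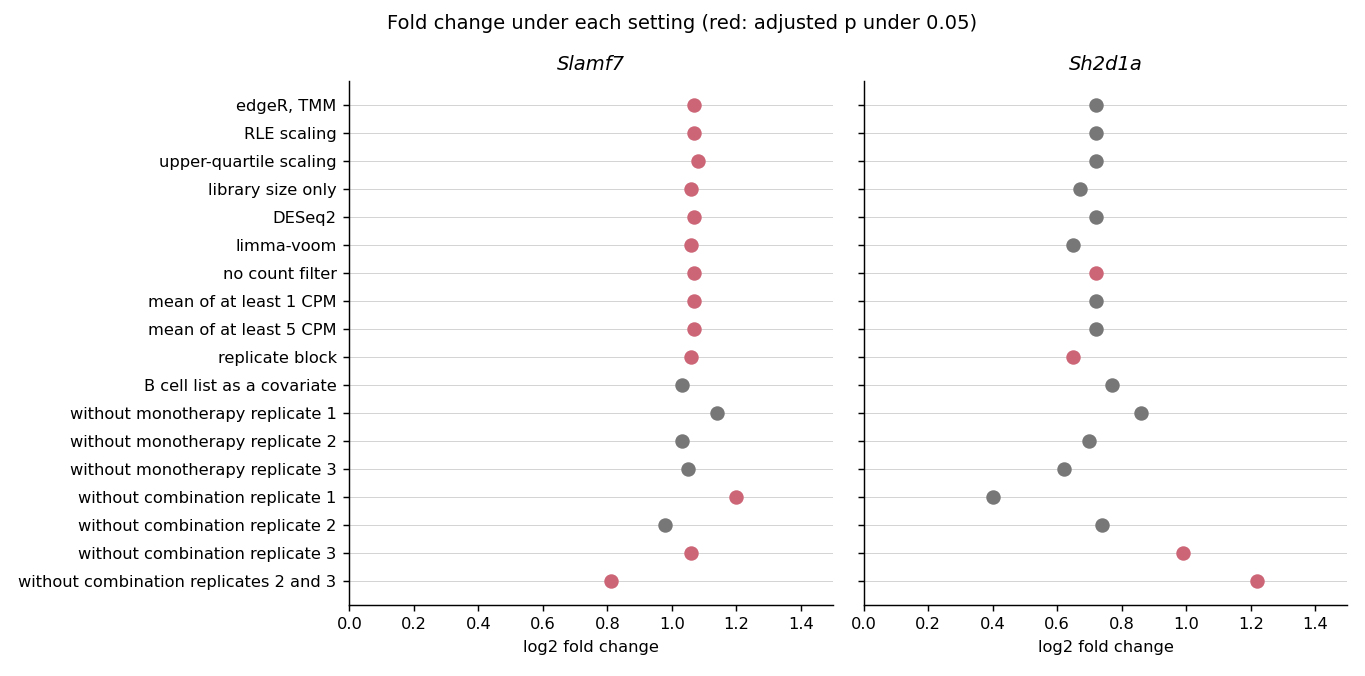
Log2 fold change (horizontal axis) of Slamf7 and Sh2d1a under the edgeR fit with TMM factors and 17 alternatives (vertical axis; red, adjusted p under 0.05). Slamf7 runs from 0.81 to 1.20 and Sh2d1a from 0.40 to 1.22, with Sh2d1a highest where combination replicates 2 and 3 are left out.

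Combination replicate 3 was the lowest of the 3 combination libraries for 8 of the 10 members, all but Slamf7 and Sh2d2a, against 39.7% of all tested genes. It was the lowest of all 6 libraries for 5 members, Slamf1, Ly9, Cd48, Cd2 and Cd226, and for 28.6% of all tested genes. The summed CD8 T cell markers were also lowest there, at 4450 CPM, against 5910 and 5690 CPM in combination replicates 1 and 2 and 4810 to 5900 CPM in monotherapy; its part in these values was not tested. Taken relative to the counts of those 7 markers, a ratio chosen after the values were seen, Sh2d1a was 0.796%, 0.803% and 0.682% in monotherapy and 1.58%, 1.14% and 0.886% in the combination. On this ratio the groups did not overlap, with all combination libraries above, for 2 of 10 members, Slamf7 and Sh2d1a, against 5.13% of all genes, and the reverse held for 0 members (5.05% of all genes). Slamf7 was 0.317%, 0.339% and 0.336% in monotherapy and 0.515%, 0.725% and 0.829% in the combination. Each had an exact two-sided permutation p = 0.1 (adjusted p of 0.367 over 11 ratios), and 3 mice against 3 allow no smaller p.

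**Figure D5:**
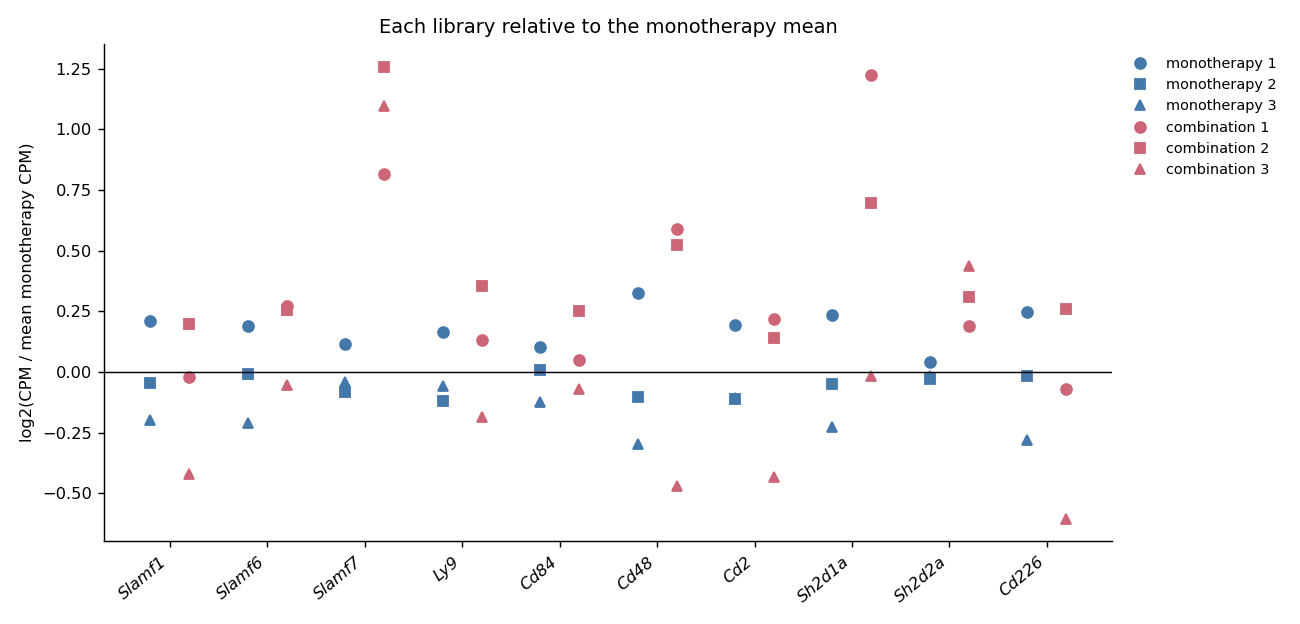
Each library's level relative to the monotherapy mean (vertical axis, log2 of the CPM ratio) for the 10 genes. Red triangles, combination replicate 3, are the lowest red point for 8 genes and the highest for Sh2d2a.

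Per kilobase of exon, the order of levels in monotherapy was Cd2, Cd48, Ly9, Cd226, Sh2d2a, Cd84, Slamf6, Sh2d1a, Slamf7 and Slamf1. Cd2 had 229 ± 28.9 CPM per kb and Cd48 128 ± 29.2 CPM per kb (SD, n = 3 each). Ly9 had 83.1 ± 8.86 and Cd226 69.0 ± 12.5 CPM per kb, and the libraries of these neighbours overlapped; the libraries of the other 8 neighbouring pairs in this order did not. Slamf7 and Slamf1 closed the order at 3.77 ± 0.276 and 1.56 ± 0.222 CPM per kb. In the combination the order was the same, with Slamf7 at 7.91 ± 1.19 CPM per kb, but the libraries of 5 of the 9 neighbouring pairs overlapped: Cd2 and Cd48, Cd48 and Ly9, Ly9 and Cd226, Slamf6 and Sh2d1a, and Sh2d1a (11.9 ± 4.90 CPM per kb) and Slamf7. Exon lengths come from the deposited annotation, and long untranslated ends, as in Slamf6 with 10832 exon bases, lower a value per kb.

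Members differed in how evenly the mice expressed them. The coefficient of variation in monotherapy ran from 2.61% for Sh2d2a to 22.8% for Cd48, and in the combination from 8.76% for Sh2d2a to 41.0% for Sh2d1a. The medians over the members were 13.1% and 19.7%, close to the 11.9% and 20.6% over all tested genes.

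No gene of the list of partners of these receptors passed in edgeR. Of 35 listed partners, 34 were in the table and 28 were tested; 0 rose, 0 fell and 28 did not pass, with 2 (Tigit and Pvrig) at an unadjusted p under 0.05 and a median log2 fold change of 0.05. DESeq2 and limma-voom called 0 as well. The kinases Fyn, Lck, Csk, Txk and Prkcq had log2 fold changes of -0.02 to 0.22, and the phosphatases Ptpn6 (SHP-1), Ptpn11 (SHP-2) and Inpp5d (SHIP-1) -0.05 to 0.15. Fyn, which SAP recruits, had 407 ± 26.7 and 451 ± 18.6 CPM (SD, n = 3 each). Cd2ap, a scaffold that binds the CD2 tail, had 100 ± 5.81 and 85.8 ± 6.03 CPM, a log2 fold change of -0.22 ± 0.12 (SE; edgeR adjusted p = 0.755).

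Other family members were scarce. Cd244, the receptor for CD48, had 13 to 42 counts per library; its gene overlaps that of Ly9 on the opposite strand without sharing exon bases. The SAP relative Sh2d1b1 had 0 to 7 counts and Sh2d1b2 had 0 in all libraries, where a count of 0 leaves room for up to 3 counts. In the CD226 group, Tigit, the inhibitory receptor for the same ligands, had 4.75 ± 2.46 and 9.53 ± 4.43 CPM (SD, n = 3 each; edgeR adjusted p = 0.558). Its log2 fold change was 1.00 ± 0.41 (SE), and it passed with no count filter (adjusted p = 0.000864) and where combination replicate 1 alone was kept (adjusted p = 0.0271). Pvrig, an inhibitory receptor for CD112, had 0.589 ± 0.229 and 1.33 ± 0.33 CPM (edgeR adjusted p = 0.396), and Cd96 261 ± 47.0 and 219 ± 53.4 CPM (edgeR adjusted p = 0.918). The integrin genes Itgal and Itgb2, which form LFA-1, had log2 fold changes of 0.02 ± 0.19 and 0.28 ± 0.14 (SE).

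Strand use in the counting is not stated, so for 2 members antisense reads could be mixed in, or reads from shared bases left out. Slamf7 shares 9.2% of its exon bases with Gm37787 on the opposite strand, a gene with 8 to 24 counts per library, and Sh2d1a shares 26.6% with Tenm1, which had 0 to 11 counts.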

How the data were processed

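Bulk RNA was sequenced from 6 libraries of sorted CD8+ T cells, 3 per group, grouped by their titles. Per the labels' protocols, libraries came from oligo(dT)-selected mRNA with the NEBNext Ultra II kit. The submitters' processing notes name DESeq2, Subread 1.5.2, featureCounts and STAR 2.5.2b, without roles; strand setting: not given in the sources used here, nor is the build. Deposited values are whole read counts per gene for 49315 genes, not normalized, and each library's own file equalled its column in the table of the series (6 of 6). Another 6 columns there correspond to no labelled sample and stayed out. Loci equalled GENCODE M21 (GRCm38) for 91.4% of shared genes and 9 of 10 members.

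Counts were tested in R 4.3.3 with edgeR 4.0.16 (filterByExpr, 15142 genes kept; TMM factors 0.901 to 1.12; quasi-likelihood F-test with no covariate; Benjamini-Hochberg over all genes, threshold 0.05). SE is the log2 coefficient over the root of F, and 95% intervals are unadjusted. The labels give no batch and do not say how the mice relate, so p-values measure the spread between these libraries. On simulated counts for 14815 genes, 46% of 50 genes raised 2-fold and 8% of 50 raised 1.5-fold were called, and 7 of 61 calls were unchanged genes. The members and lists were chosen with earlier results of these data known. Named genes are the members, the partner list and, by a rule, the 3 genes of at least 5 mean CPM whose log2 CPM (prior count 2) correlated best with each of the 3 members of smallest p. DESeq2 1.42.0, limma-voom (limma 3.58.1), scalings, filters, a block, a covariate and left-out libraries were the alternatives. A gene of the partner list is not reported here. Counting limits cover counting error only.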

Additional observations from a re-analysis of the deposited data

How the results depend on the processing

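The Slamf7 fold change kept its direction in all 17 alternatives and its call in 12. The members called higher numbered 1, and 2 (Slamf7 and Sh2d1a) with no count filter, with the replicate block and without combination replicates 2 and 3, and 0 with the summed B cell markers as covariate; with 1 library left out they ranged from 0 to 2. The B cell markers of the covariate include Cd22, which itself rose. No alternative called a member lower. The partner list had 0 calls, and 1 (Tigit) with no count filter and without combination replicates 2 and 3. Over all genes 144 were higher and 20 lower; DESeq2 gave 258 and 59, no count filter 340 and 113, the replicate block 231 and 57, the B cell covariate 59 and 4, and the fit without combination replicates 2 and 3 gave 834 and 628. With 1 library left out the counts ran from 32 to 233 higher and from 2 to 49 lower. The causes were not tested. The members' median log2 fold change was 0.07 to 0.25.

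Small fold changes changed sign. Cd2 had -0.03 with library size only, 0.00 in DESeq2, -0.02 in limma-voom and with the replicate block, and -0.10 to 0.18 with 1 library left out (below 0 without monotherapy replicates 2 or 3 or combination replicates 1 or 2). With 1 library left out, Cd226 ran from -0.30 to 0.11 and Slamf1 from -0.19 to 0.10, above 0 without monotherapy replicate 1 or combination replicate 3, and Ly9 from -0.01 (without combination replicate 2) to 0.25. Same-numbered libraries had correlated deviations of 0.15, -0.06 and 0.28. Monotherapy replicates 1 and 3 correlated best with the combination library of the same number, and monotherapy replicate 2 with combination replicate 1 (0.08). With so few libraries per group, these values cannot show whether the numbers pair mice. With the block Sh2d1a had 0.65 (edgeR adjusted p = 0.0451). Every member had at least 277 counts in each library, while depth limits Cd244 and Sh2d1b1.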

Other observations

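Among the members, Slamf1 and Cd226 followed each other most closely over the 6 libraries, with a Pearson r of 0.995 of log2 CPM, though Slamf1 lies on another chromosome than Cd226 and its level was far lower. Cd48 and Cd2, a ligand and its receptor, had r = 0.934. Such a value was not particular to this pair. Slamf6 and Cd48 had r = 0.928, and Ly9 and Cd84 had r = 0.898, while Slamf7 and Cd2 had r = -0.041. After each group's mean was taken out, Sh2d1a and Sh2d2a, the adaptor genes, went opposite ways (r = -0.811). This was not particular to the adaptors. Sh2d2a had a negative r with every other member but Slamf7 (r = 0.645), among them Cd2 (r = -0.668) and Cd48 (r = -0.641). These are descriptions over 6 libraries that share their scaling, with no test.

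The genes whose pattern over the 6 libraries was most like that of Slamf7, among 8974 compared, were Dleu2 (r = 0.991), Tfdp1 (r = 0.990) and Klrk1 (r = 0.989), with log2 fold changes of 0.56, 0.38 and 0.51, none of which passed in edgeR. For Sh2d1a they were Klra7 (r = 0.996), a Ly49 gene whose close copies can share reads, Gmnn (r = 0.993) and Itm2a (r = 0.989), also without a call. For Sh2d2a they were Gdf11 and Lax1 (r = 0.997 each) and Kntc1 (r = 0.992), of which Kntc1 rose, by 1.53 on the log2 scale (edgeR adjusted p = 0.0148). These genes are the best of 8974 by this measure, so high r values come with the choice.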
